A study of Mus musculus with 2 samples.

Results

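The vacuolar proton pump (V-ATPase) and a set of acid-base genes were followed across the cell types of the postischemic mouse kidney. Members were chosen by name alone. They comprised the 26 genes whose symbol starts with Atp6v or Atp6ap, called the V-ATPase group here, and 12 named genes, called the acid-base group (Foxi1, Car2, Car4, Car12, Car15, Slc4a1, Slc4a4, Slc4a9, Slc26a4, Slc26a7, Rhbg and Rhcg). Together these were 38 of the 32285 genes counted, and each had at least 1 unique molecular identifier (UMI, the tag of 1 captured RNA molecule) in the barcodes kept. In the 9 cell classes described below, 35 members reached 50 UMIs over both libraries in at least 1 class and 19 did so in every class. The remaining 3 were Atp6v1fnb (11 UMIs for Cre- and 9 for PHDTiEC), Atp6ap1l (1 and 0) and Atp6v1e2 (2 and 0). Of these, Atp6v1fnb is named as the neighbour of Atp6v1f and is not known as a pump subunit.

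The V-ATPase is built from a cytosolic V1 sector, which splits ATP, and a membrane V0 sector, through which protons cross. Every cell uses it to acidify lysosomes and endosomes, and several of its subunits come in isoforms from separate genes with different tissue distribution. Intercalated cells of the kidney collecting system also carry the pump at the plasma membrane: type A cells secrete acid into the urine and return bicarbonate to blood through the anion exchanger Slc4a1 (AE1), whereas type B cells secrete bicarbonate through Slc26a4 (pendrin). Carbonic anhydrases (the Car genes) interconvert CO2 and bicarbonate, Rhbg and Rhcg carry ammonia, and Foxi1 is the forkhead transcription factor on which the intercalated cell fate depends.

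The study asked how loss of the oxygen sensors PHD1, PHD2 and PHD3 in endothelial cells after ischemia alters the kidney, and profiled single cells of the injured kidney from 1 mouse per genotype. One mouse, called PHDTiEC, carried Cdh5(PAC)-CreERT2 with floxed Phd1, Phd2 and Phd3, so that Cre was driven by an endothelial promoter, and the other was a Cre- littermate. Both were males of 8 to 10 weeks, had the artery of 1 kidney clamped for 25 min, received 4 doses of 3 mg tamoxifen from the day after surgery, and were analysed on day 14. With 1 library per genotype no difference between genotypes could be tested, so each is given as both values with exact 95% Poisson or binomial intervals, which cover counting error only.

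The targeted genes did not show the deletion in these counts. In endothelial-like cells Egln2 (PHD1) stood at 44.3 CPM (counts per 1000000 UMIs of the class) in the Cre- library and 39.3 CPM in the other, Egln1 (PHD2) at 67.6 and 201.8 CPM, and Egln3 (PHD3) at 26.03 and 160.4 CPM. Tags from the 3′ end of a transcript need not show the loss of an upstream exon, so the genotype is taken from the label alone, as the library labelled PHDTiEC. Paired values below are always in the order Cre-, then PHDTiEC. The libraries held 136004367 and 146758812 UMIs. After filtering, 8548 and 9309 barcodes remained, with a median of 7500 and 7898 UMIs, and 28 of the 17829 distinct barcode sequences occurred in both libraries.

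Cell classes were formed by clustering without the 38 members and named from marker genes. Foxi1 and Atp6v1g3 were among the markers used to name intercalated-like cells, and Slc4a1, Slc26a4 and Slc4a9 among those used to tell type A from type B, so the high level of these 5 members in the classes they named is a description and no result. Type A-like cells (80 and 37) rested on Aqp6, Kit, Adgrf5, Dmrt2 and Slc4a1, and type B-like cells (79 and 47) on Insrr, Slc26a4 and Slc4a9. The label type B was not clean. The remaining gene of the type B marker list did not set these cells apart from the other intercalated-like cells. Hmx2, listed as a type A marker, stood at 529 and 449 CPM in type B-like cells against 1.00 and 11.4 CPM in type A-like cells, and Umod, a marker of the thick ascending limb, reached 979 and 1141 CPM in the type B-like cells.

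A larger group of intercalated-like barcodes could not be given a type. These 334 and 374 barcodes had a median of 47083.5 and 52765 UMIs, against 11203.5 and 11604 in type A-like cells, and they carried markers of both types as well as collecting duct principal markers, which summed to 3140 and 3477 CPM over the 5 genes of that list against 273 and 285 CPM in type A-like cells. The name used for them, deep intercalated-like, states only their cluster and their depth. A further 29 and 35 intercalated-like barcodes carried macrophage genes and 11 and 20 were shallow. Both small groups were kept apart.

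Type A-like cells made up 1.00% (95% interval 0.794 to 1.24) of the 8000 classed cells of the Cre- library and 0.422% (0.297 to 0.581) of the 8773 of the library labelled PHDTiEC. Type B-like cells made up 0.988% (0.783 to 1.23) and 0.536% (0.394 to 0.712). Neither pair of intervals overlapped, whereas the deep intercalated-like share was 4.18% and 4.26%. The median mitochondrial share per cell was 11.9% and 5.99% in type A-like cells and 7.33% and 7.36% in type B-like cells. The part of dissociation and cell quality in these shares was not tested.

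Both intercalated-like types carried far more V-ATPase message than any other class (the plot of summed levels). Summed over the 26 genes, the V-ATPase group reached 17916 CPM (95% interval 17655 to 18180) and 17904 CPM (17510 to 18305) in type A-like cells. In type B-like cells it reached 20004 and 22397 CPM. The naming marker Atp6v1g3 is part of this sum, at 4609 and 4947 CPM in type A-like and 5716 and 7095 CPM in type B-like cells. A sum without it was not computed, so the gaps to other classes partly describe the naming. The next highest of the 6 tubule and macrophage classes outside the intercalated-like cells was the proximal tubule-like class in the Cre- library (4471 CPM). In the other library it was the distal convoluted tubule-like class (4551 CPM). These lay 4.01-fold and 3.93-fold below type A-like and 4.47-fold and 4.92-fold below type B-like cells. Deep intercalated-like cells came nearer, at 9684 and 9309 CPM. Below, the next class is always the highest of these 6, so deep intercalated-like and neutrophil-like cells are left out of it.

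**Figure D1:**
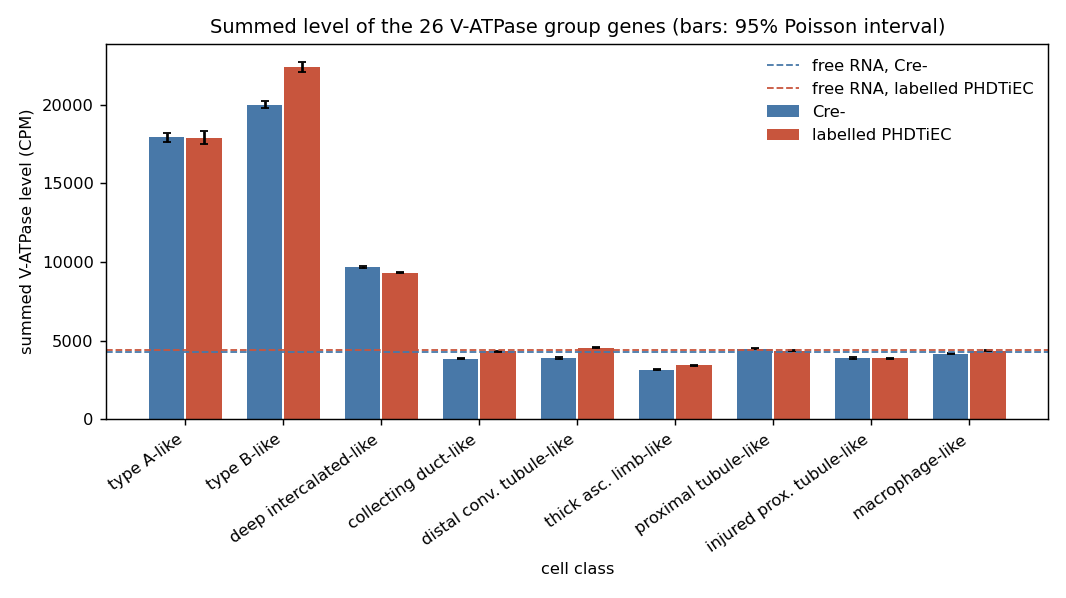
Summed V-ATPase level (26 genes, among them the naming marker Atp6v1g3) in CPM for each cell class, with a bar for each library and error bars giving exact 95% Poisson intervals. Dashed lines mark the level in barcodes under 100 UMIs (free RNA). Type A-like and type B-like bars stand at 17904 to 22397 CPM, deep intercalated-like bars at 9684 and 9309 CPM, and the other tubule and macrophage bars at 3131 to 4551 CPM, close to the free RNA level of 4275 and 4367 CPM.

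Across the tubule and macrophage classes outside the intercalated-like cells the sums were closer together. It stood at 3849 and 4307 CPM in collecting duct-like, 3131 and 3429 CPM in thick ascending limb-like, 3878 and 3865 CPM in injured proximal tubule-like and 4164 and 4365 CPM in macrophage-like cells. Neutrophil-like cells lay above all of these at 6043 and 7053 CPM, and T-like cells lay low at 1597 and 1610 CPM. Barcodes under 100 UMIs, taken as free RNA, held 4275 and 4367 CPM. The free RNA share of each class, estimated from markers of cell types outside the tubule, was 2.56% and 2.41% in type A-like cells but 13.2% and 6.37% in type B-like cells. Multiplied by the level of a gene in free RNA, it gives an estimate of the level that free RNA would bring, called the free RNA part below. Some measured levels lay below this part, so there the estimate was too high, and it is no exact baseline.

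Leaving out the naming marker Atp6v1g3, 14 (Cre-) and 15 (PHDTiEC) of 22 V-ATPase genes with at least 50 UMIs were higher in type A-like cells than in each of the 6 other classes, where 21.4% and 22.9% of all genes measured were. For type B-like cells the counts were 14 and 14, against 16.9% and 17.3% of all genes measured. The genes that were not higher there were mostly the general isoforms, namely Atp6v1b2, Atp6v1c1, Atp6v1g1, Atp6v0a1, Atp6v0a2 and Atp6v0d1. The others were the scarce Atp6v0e2, and the scarce Atp6v1g2 except in the type A-like cells of the library labelled PHDTiEC. A class may stand above others in many genes for reasons of naming and composition, so these counts are given without a test.

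Among the V1 subunits, the stalk subunit G3 (Atp6v1g3) was the most abundant member in both types, at 4609 and 4947 CPM in type A-like and 5716 and 7095 CPM in type B-like cells, 53.3-fold and 45.3-fold, and 66.1-fold and 64.9-fold, above the next class. The stalk subunit E1 (Atp6v1e1) followed at 1828 and 1857 CPM in type A-like and 1715 and 1981 CPM in type B-like cells. The catalytic subunit A (Atp6v1a), which binds and splits ATP, stood at 1382 and 1300.0 CPM in type A-like and 1307 and 1668 CPM in type B-like cells. Atp6v1e1 and Atp6v1a were 2.72 to 4.29 times above the next class, a much smaller gap than that of the G3 isoform. The C2 isoform (Atp6v1c2) was low in absolute terms, at 426 and 465 CPM in type A-like and 677 and 736 CPM in type B-like cells. Yet it was 57.0-fold and 64.0-fold, and 90.7-fold and 101.2-fold, above the next class, in which deep intercalated-like cells are not counted.

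The B1 isoform (Atp6v1b1), the kidney and inner ear form of the nucleotide-binding subunit B, reached 493 and 490.4 CPM in type A-like and 353 and 373 CPM in type B-like cells. Its next highest class was distal convoluted tubule-like, at 85.5 and 137 CPM, so that the gap was 5.76-fold and 3.58-fold for type A-like and 4.13-fold and 2.72-fold for type B-like cells. Of the remaining V1 genes, Atp6v1f stood at 1248 and 1179 CPM, Atp6v1d at 544 and 575 CPM, Atp6v1h at 233 and 226 CPM and Atp6v1g1 at 275 and 253 CPM in type A-like cells. In type B-like cells Atp6v1f stood at 1128 and 994 CPM and Atp6v1d at 578 and 611 CPM. Atp6v1g2 had 3 and 4 UMIs in type A-like and 3 and 3 UMIs in type B-like cells.

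In the V0 sector the proteolipid Atp6v0c, which forms most of the proton-carrying ring, led at 2278 and 2249 CPM in type A-like cells. In type B-like cells it stood at 2488 and 2748 CPM. Both types were only 1.69-fold to 2.07-fold above the next of the tubule and macrophage classes. Neutrophil-like cells, which are not among those classes, stood at 2020.4 and 2393 CPM, above type A-like cells in the library labelled PHDTiEC. Atp6v0e and Atp6v0b, small membrane subunits, stood at 1179 and 1106 CPM and at 1026 and 958 CPM in type A-like cells. The d2 isoform (Atp6v0d2), which joins the ring to the central stalk, was at 708 and 725 CPM in type A-like and 867 and 928 CPM in type B-like cells. Its next highest class was macrophage-like, at 118 and 151 CPM. The a4 isoform (Atp6v0a4), the kidney form of the large membrane subunit a, was at 625 and 566 CPM in type A-like and 673 and 706 CPM in type B-like cells. Distal convoluted tubule-like cells came next for a4 at 230.2 and 333 CPM, a gap of 2.72-fold and 1.70-fold below type A-like cells. The accessory proteins were lower, with Atp6ap1 at 414 and 369.5 CPM and Atp6ap2, the prorenin receptor, at 387 and 339.8 CPM in type A-like cells.

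**Figure D2:**
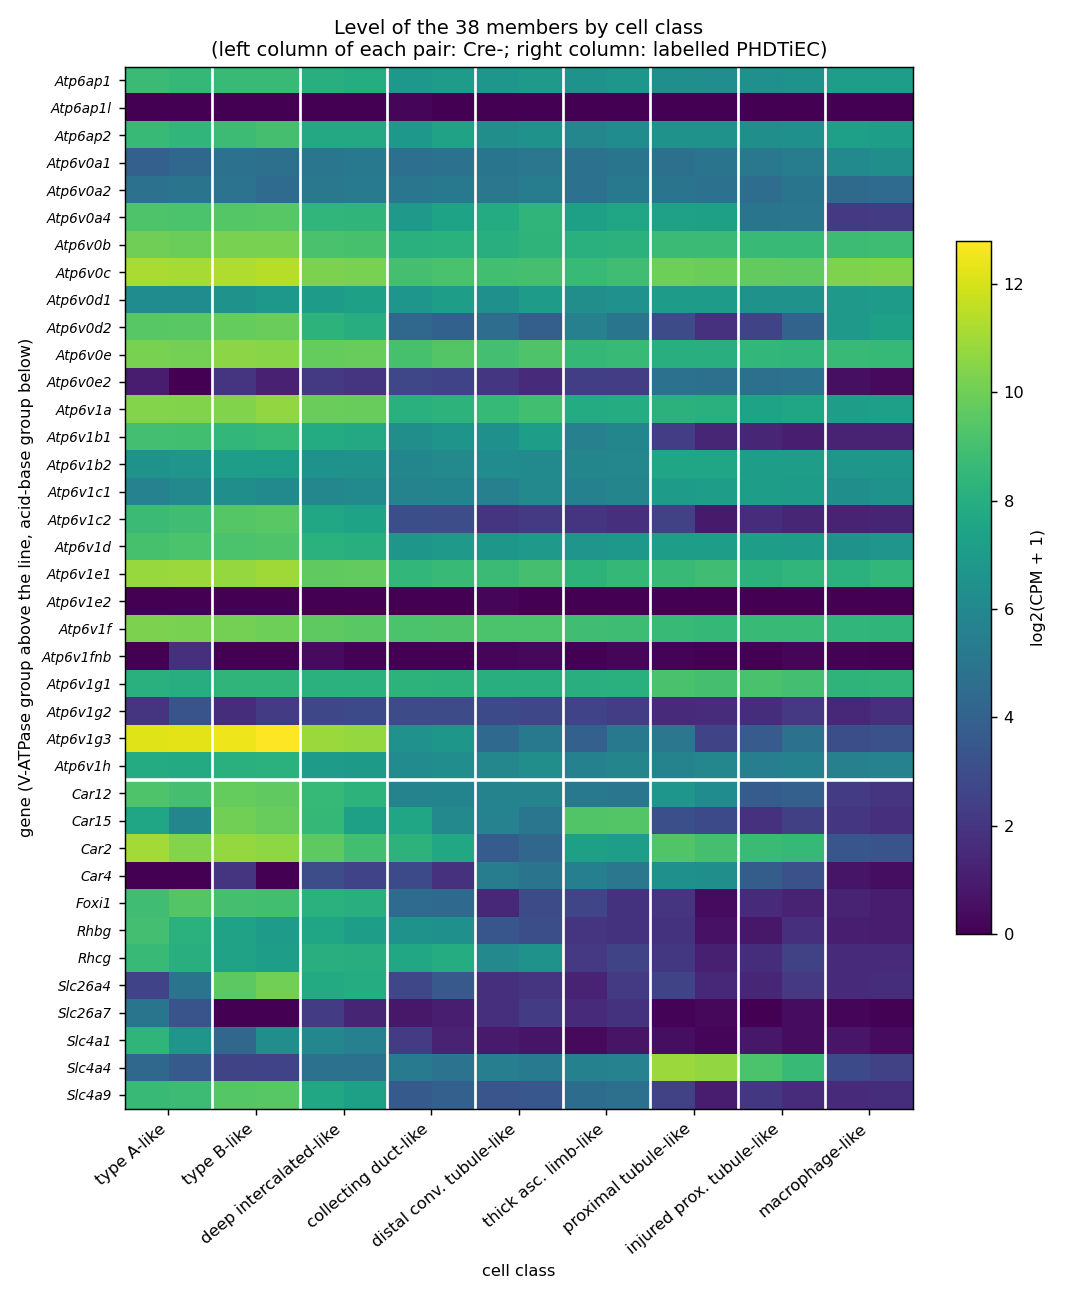
Heat map of the 38 members (rows) in 9 cell classes, with adjoining columns for the Cre- and PHDTiEC libraries; colour gives log2(CPM + 1). Atp6v1g3 and Atp6v1c2 are brightest in the intercalated-like columns, whereas Atp6v0c, Atp6v1e1 and Atp6v1f are bright in every column, and Slc4a4 is brightest in proximal tubule-like cells.

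The genes for the 3 isoforms best known from the intercalated cell pump lie apart in the mouse genome (build GRCm38): Atp6v1b1 at chr6:83742990-83758855 on the plus strand, Atp6v1g3 at chr1:138273738-138289462 on the plus strand and Atp6v0a4 at chr6:38048483-38124586 on the minus strand. Their promoters are shown because the isoforms are the ones known from that pump and because Foxi1 is a forkhead factor. The letters GTAAACA, a forkhead core motif, were searched on both strands from 250 bases before to 50 bases after each annotated start (RefSeq, GRCm38.p6). They occurred in 1199 of 32851 promoters (3.65%), and in 1 of the 30 promoters found for 26 of the 38 members. That promoter was that of Atp6v1b1, where the match, in capitals, lay 98 to 92 bases before the start on the reverse strand. GC content was 57.3% in the Atp6v1b1 window (chr6:83742767-83743066), 46.3% in the Atp6v1g3 window (chr1:138273488-138273787) and 48.0% in the Atp6v0a4 window (chr6:38124537-38124836), against a median of 52.7% over all promoters. A match of letters is a description and not a site. The windows read as follows, 5′ to 3′ on the strand of the gene.
Atp6v1b1: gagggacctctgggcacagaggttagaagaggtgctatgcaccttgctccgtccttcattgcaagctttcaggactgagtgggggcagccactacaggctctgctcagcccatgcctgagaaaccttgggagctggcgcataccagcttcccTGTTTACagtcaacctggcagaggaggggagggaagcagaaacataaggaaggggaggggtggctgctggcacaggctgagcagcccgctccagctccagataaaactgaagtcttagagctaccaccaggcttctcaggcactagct
Atp6v1g3: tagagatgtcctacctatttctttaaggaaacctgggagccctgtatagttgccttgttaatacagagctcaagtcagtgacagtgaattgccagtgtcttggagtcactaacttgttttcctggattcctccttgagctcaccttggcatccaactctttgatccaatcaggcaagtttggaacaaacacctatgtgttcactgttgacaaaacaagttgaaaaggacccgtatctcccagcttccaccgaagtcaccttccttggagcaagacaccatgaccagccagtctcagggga
Atp6v0a4: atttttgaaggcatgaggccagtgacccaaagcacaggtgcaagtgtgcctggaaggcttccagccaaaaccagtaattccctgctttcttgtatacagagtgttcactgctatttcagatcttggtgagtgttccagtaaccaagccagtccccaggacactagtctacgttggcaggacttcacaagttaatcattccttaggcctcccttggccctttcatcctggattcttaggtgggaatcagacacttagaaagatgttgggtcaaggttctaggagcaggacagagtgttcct

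Where a subunit has isoforms from several genes, the share of each isoform among the UMIs of its family separated the classes more sharply than the sum did (the plot of isoform shares). In type A-like cells the G3 isoform held 94.3% (95% interval 93.6 to 94.9) and 94.96% (94.0 to 95.8) of G subunit UMIs, and in type B-like cells 94.5% and 95.4%. The share was 21.8% and 26.3% in collecting duct-like cells, 6.76% and 11.7% in distal convoluted tubule-like cells and 2.20% and 2.31% in macrophage-like cells, where the general isoform Atp6v1g1 held 97.3% and 97.0%. The C2 isoform held 89.5% and 87.9% of C subunit UMIs in type A-like and 89.1% and 91.4% in type B-like cells. In collecting duct-like cells it held 12.5% and 11.9%. Deep intercalated-like cells came much nearer to both types, at 77.3% and 71.5% for C2 and 86.2% and 85.4% for G3. The G3 share in intercalated-like cells describes a gene that helped to name them, whereas C2 had no part in naming.

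The B1 isoform was shared with other distal segments, and the a4 isoform with distal and proximal segments. The B1 isoform held 83.9% and 82.7% of B subunit UMIs in type A-like cells and 71.4% and 73.0% in type B-like cells, but also 57.8% and 60.7% in collecting duct-like, 53.5% and 66.8% in distal convoluted tubule-like and 44.8% and 48.9% in thick ascending limb-like cells. The a4 isoform held 91.5% and 84.9% of a subunit UMIs in type A-like cells, and 71.0% and 68.6% in proximal tubule-like cells. It held 73.4% and 77.6% in distal convoluted tubule-like, 68.9% and 68.8% in thick ascending limb-like and 60.1% and 67.4% in collecting duct-like cells. In injured proximal tubule-like cells its share was 28.9% (233 of 806 UMIs) in the Cre- library, and 195 of 750 UMIs in the other. The level of a4 there was 30.5 and 31.5 CPM, against 162 and 153 CPM in proximal tubule-like cells.

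The d2 isoform followed another pattern, in which macrophage-like cells came next after the intercalated-like cells. It held 90.7% and 90.9% of d subunit UMIs in type A-like, 90.5% and 89.4% in type B-like, and 50.1% and 54.2% in macrophage-like cells. Its share was 37.1% and 25.5% in thick ascending limb-like, 20.7% and 9.58% in distal convoluted tubule-like and 5.18% and 2.00% in proximal tubule-like cells. For the a subunit, macrophage-like cells used Tcirg1 (the a3 isoform, which no rule made a member), at 53.3% and 50.7%, and Atp6v0a1, at 34.5% and 37.7%, with 1.68% and 1.76% for a4. Some families had only 1 isoform in use. Atp6v1e1 supplied 100% of the 1833 and 814 E subunit UMIs in type A-like cells, where a count of 0 for Atp6v1e2 allowed a share of up to 0.201% in the Cre- library.

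**Figure D3:**
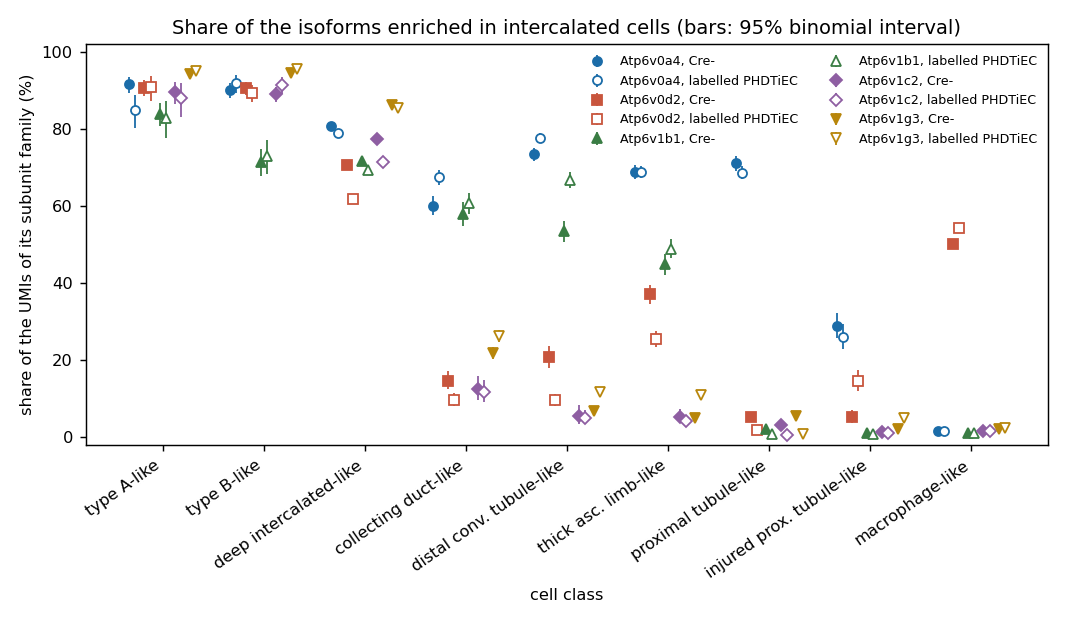
Share of Atp6v0a4, Atp6v0d2, Atp6v1b1, Atp6v1c2 and Atp6v1g3 among the UMIs of their own subunit family, in percent, by cell class and library, with exact 95% binomial intervals. The G3 and C2 shares are at 87.9% to 95.4% in type A-like and type B-like cells and at most 26.3% in the classes outside the intercalated-like cells, whereas d2 is also at 50.1% and 54.2% in macrophage-like cells.

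Type A-like and type B-like cells were compared within each library over the 28 members that reached 50 UMIs. Over all genes measured, 3.40% were at least 1.5 times higher in type A-like cells in both libraries and 3.63% in type B-like cells. Among members that had no part in naming, Rhbg and Rhcg were at least 1.5 times higher in type A-like cells in both libraries. Rhbg, the basolateral ammonia carrier, stood at 508 and 287 CPM in type A-like and 167 and 132 CPM in type B-like cells, a gap of 3.04-fold and 2.18-fold, and Rhcg, its relative that is also found on the apical side, at 404 and 271 CPM against 163 and 138 CPM. Conversely, Atp6v1c2 was 1.59-fold and 1.58-fold higher in type B-like cells, and the membrane-anchored carbonic anhydrase Car15 was 5.66-fold and 15.9-fold higher. Car15 stood at 189.5 and 57.0 CPM in type A-like and 1073 and 909 CPM in type B-like cells. It was also high in thick ascending limb-like cells, at 635 and 654 CPM, whose marker Umod was present in the type B-like cells, and the part of that in the Car15 gap was not tested. Atp6v0d1, Atp6v1c1, Atp6ap2 and Car12 passed 1.5-fold in favour of type B-like cells in 1 of the libraries. The other V-ATPase genes lay closer together, such as Atp6v1b1 with a log2 ratio of type A-like over type B-like of 0.48 and 0.40.

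The members used for naming were as their use requires. Slc26a4 stood at 771 and 1066 CPM in type B-like cells and at 4.99 and 29.7 CPM in type A-like cells, where a single barcode held 84.6% of its UMIs in the library labelled PHDTiEC. Slc4a9 (AE4), an anion exchanger of type B cells, was at 686 and 702 CPM in type B-like but also at 387 and 429 CPM in type A-like cells. Slc4a1 stood at 333 and 100.4 CPM in type A-like cells and at 17.8 and 79.1 CPM in type B-like cells, so in the library labelled PHDTiEC the gap between the types was small. In that library a single barcode held 60.3% of the Slc4a1 UMIs of the type B-like cells.

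Of the 8 acid-base genes that had no part in naming, 5 and 5 were higher in type A-like cells than in each of the 6 other classes, and 4 and 4 in type B-like cells. Over all genes measured the shares were 21.4% and 22.9% for type A-like and 16.9% and 17.3% for type B-like cells. Foxi1 is not among these 8, since it helped to name the cells. It stood at 467 and 657 CPM in type A-like and 518 and 479.6 CPM in type B-like cells, 22.2-fold to 33.1-fold above the next class. Car2, the cytosolic carbonic anhydrase, was at 2100.1 and 1384 CPM in type A-like and 1724 and 1581 CPM in type B-like cells. Proximal tubule-like cells came next for Car2 at 645 and 513 CPM. Car12, a membrane carbonic anhydrase, was at 611 and 518 CPM in type A-like and 877 and 826 CPM in type B-like cells, 5.87-fold to 11.3-fold above the next class.

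Other acid-base genes belonged elsewhere. Slc4a4 (NBCe1), which returns bicarbonate to blood in the proximal tubule, stood at 1851 and 1671 CPM in proximal tubule-like and 565 and 405 CPM in injured proximal tubule-like cells, but at 18.95 and 11.4 CPM in type A-like cells and at 5.18 and 5.02 CPM in type B-like cells, where its free RNA part was 27.5 and 13.7 CPM. Car4, the luminal carbonic anhydrase of that segment, was at 85.0 and 81.6 CPM in proximal tubule-like cells, and it had no UMI in the type A-like cells of either library. Slc26a7, an anion exchanger of the outer medullary collecting duct, was scarce, with 31 and 4 UMIs in type A-like and 0 and 0 in type B-like cells. Rhcg was at 205 and 239 CPM in collecting duct-like cells, more than in type B-like cells.

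The question for the genotypes was whether the label PHDTiEC went with other levels of these genes in tubule and immune cells. Differences are described as past the fold where a member had at least 50 UMIs over both libraries and differed by at least 1.5 times. In type A-like cells 19 V-ATPase genes reached 50 UMIs and 0 were past the fold, with a median log2 ratio of -0.018 (PHDTiEC over Cre-) against 0.084 for all genes. The summed level had a log2 ratio of -0.001 (95% interval -0.039 to 0.037). In the same cells 9.85% of all 4446 genes measured were at least 1.5 times higher and 5.56% at least 1.5 times lower in the library labelled PHDTiEC.

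Of the 8 acid-base genes measured in type A-like cells, 4 were lower past the fold in the library labelled PHDTiEC and 0 were higher, with a median of -0.587. Car2 stood at 2100.1 CPM (95% interval 2011 to 2192) and 1384 CPM (1277 to 1499), a log2 ratio of -0.60 (-0.73 to -0.47). The ratio was inside 1.5 times in 4 of 12 alternatives, such as -0.470 as a mean over cells and -0.530 at up to 20% mt- UMIs. Rhbg stood at 508 CPM (464 to 554) and 287 CPM (239 to 342), a log2 ratio of -0.82 (-1.11 to -0.54). Slc4a1 stood at 333 and 100.4 CPM (334 and 44 UMIs), a log2 ratio of -1.73 (-2.22 to -1.27). Car15 stood at 189.5 and 57.0 CPM (190 and 25 UMIs), a log2 ratio of -1.73 (-2.40 to -1.13), and 1 barcode held 17.9% of its UMIs in the Cre- library. None of the 4 pairs of intervals overlapped, but the 4 genes were picked by their ratio. The share of all genes without overlap was not computed, and the intervals cover counting error only.

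Rhcg and Foxi1 did not pass the fold. Rhcg stood at 404 CPM (365.5 to 445) and 271 CPM (225 to 325), a log2 ratio of -0.57, just inside 1.5 times. Foxi1 ran the other way, at 467 CPM (425 to 511) and 657 CPM (583 to 737), a log2 ratio of 0.49. Slc26a7 was below the count minimum, at 30.9 and 9.12 CPM (31 and 4 UMIs), and the intervals of its levels overlapped. The median mitochondrial share of the type A-like cells was 11.9% and 5.99%, and of the non-member markers that name type A, Aqp6 (a water channel) stood at 1594 and 750.4 CPM, Kit at 692 and 593 CPM, Adgrf5 at 943 and 985 CPM and Dmrt2 at 350.0 and 410.5 CPM. The log2 ratio was -1.09 for Aqp6 and lay between -0.22 and 0.23 for the other 3. The part of the mitochondrial share in the lower levels was not tested.

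In type B-like cells 1 of the 30 members measured was past the fold. There 5.61% of all 5577 genes measured were higher and 4.34% lower past the fold, and the medians were 0.068 for 21 V-ATPase genes, -0.112 for 9 acid-base genes and 0.046 for all genes. The member was Slc4a1, at 17.8 CPM (11.4 to 26.4) and 79.1 CPM (60.8 to 101.2), a log2 ratio of 2.16 (1.46 to 2.90). It fell to 0.92 without the barcode that held 60.3% of its UMIs. Car2 stood at 1724 and 1581 CPM, a log2 ratio of -0.12, and Car15 at 1073 and 909 CPM, a log2 ratio of -0.24, so the wide gaps of type A-like cells were not seen there. Whether the ratios of the types differed was not tested. Atp6v1g3 had a log2 ratio of 0.31 (0.26 to 0.36), Atp6v1a of 0.35 (0.25 to 0.46) and Slc26a4 of 0.47 (0.34 to 0.60), each inside 1.5 times. The estimated free RNA share of these cells was 13.2% and 6.37%.

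**Figure D4:**
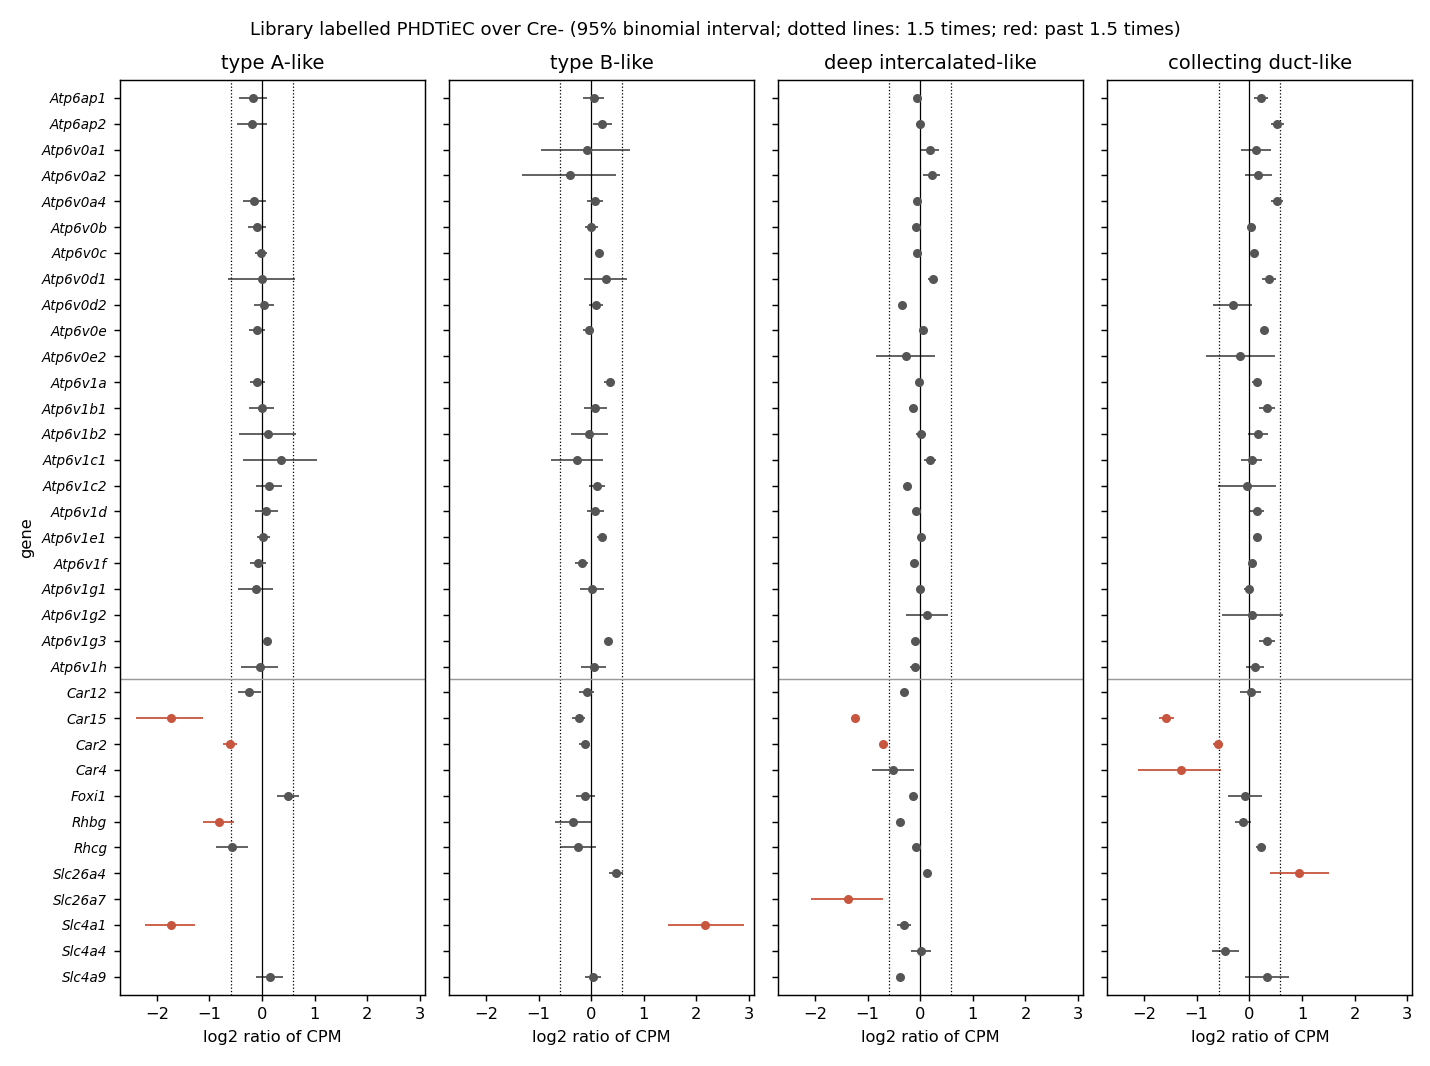
Log2 ratio of CPM in the library labelled PHDTiEC over the Cre- library for each member in type A-like, type B-like, deep intercalated-like and collecting duct-like cells, with exact 95% binomial intervals of the split of UMIs. Red points are members with at least 50 UMIs that differ by at least 1.5 times. No V-ATPase point is red in any of the 4 panels, whereas Car2 and Car15 lie below it in type A-like, deep intercalated-like and collecting duct-like cells.

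Deep intercalated-like cells had the counts to measure 35 members, of which 3 were lower past the fold and 0 higher. In these cells 2.79% of all 12385 genes measured were higher and 3.2% lower past the fold. The median was -0.059 for 23 V-ATPase genes, -0.346 for 12 acid-base genes and 0.030 for all genes. Car2 stood at 795 CPM (781 to 809) and 484 CPM (474 to 494), a log2 ratio of -0.72. Car15 stood at 361 CPM (352 to 370.4) and 152 CPM (147 to 158), a log2 ratio of -1.24. Slc26a7 stood at 3.86 and 1.49 CPM (63 and 28 UMIs), a log2 ratio of -1.37. Slc4a1 stood at 58.8 and 47.3 CPM, a log2 ratio of -0.31, against -1.73 in type A-like cells, a difference that was not tested.

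The deep cells fell into 6 subclusters that the libraries filled unequally, and the ratios depended on which was read. Subcluster 0, led by Oit1, Fras1 and Krt80, held 55 and 152 cells (Cre- and PHDTiEC), and subcluster 5, led by Calb1 and Kl, held 71 and 19. Car2 stood at 392 and 435 CPM in subcluster 0 and at 1062 and 1016 CPM in subcluster 5. The gap was wider in subcluster 6, led by Aqp2 and Aqp4 (1207 and 795 CPM in 55 and 20 cells), and in subcluster 8, led by Cfb and Sprr2f (714 and 372 CPM in 16 and 32 cells). In subcluster 1, led by Slc12a3 and Klk1, it stood at 449 and 289 CPM in 48 and 97 cells. Subcluster 2, led by Ccl20 and Pdgfb, held the most Cre- cells and subcluster 0 the most of the library labelled PHDTiEC, and in neither was Car2 past the fold (763 and 716 CPM in the 89 and 54 cells of subcluster 2). Car15 was lower in the library labelled PHDTiEC in 5 of the 6 subclusters and level in subcluster 1, at 223 and 223 CPM.

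In collecting duct-like cells 1 of 33 members was higher and 3 were lower past the fold, where 3.91% of all 11313 genes measured were higher and 3.57% lower. Car2 stood at 309 CPM (297 to 322) and 205 CPM (195 to 215), a log2 ratio of -0.60. It was past the fold in 9 of 12 alternatives and inside it, at -0.511, without the richest barcode. Car15 stood at 192 CPM (182 to 202) and 64.3 CPM (59.0 to 70.1), a log2 ratio of -1.58. Both were well above their free RNA part, which was 38.1 and 23.9 CPM for Car2 and 17.3 and 11.4 CPM for Car15. Car4 stood at 6.27 and 2.54 CPM (47 and 21 UMIs), with a free RNA part of 2.20 and 1.44 CPM. Slc26a4 was the member that was higher, at 5.60 and 10.8 CPM, below its free RNA part of 9.22 and 11.9 CPM, and its ratio was -0.248 at up to 50000 UMIs. The V-ATPase genes had a median of 0.142 over 23 genes, none past the fold, against 0.054 for all genes.

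**Figure D5:**
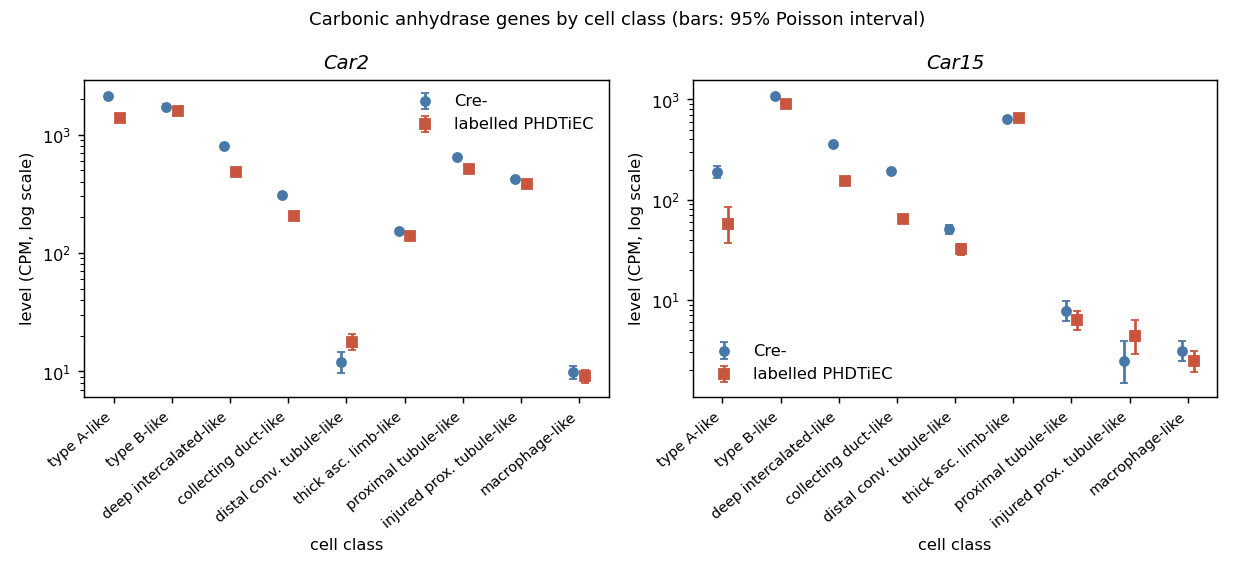
Level of Car2 and Car15 in CPM (log axis) by cell class and library, with exact 95% Poisson intervals. Both lie lower in the library labelled PHDTiEC in type A-like, deep intercalated-like and collecting duct-like cells, whereas Car15 in thick ascending limb-like cells is level at 635 and 654 CPM.

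In distal convoluted tubule-like cells 4 of 32 members were higher and 2 lower past the fold in the library labelled PHDTiEC, and the median log2 ratio was 0.263 over 22 V-ATPase genes and 0.067 over 10 acid-base genes against 0.114 for all genes. There 5.44% of all 11174 genes measured were higher and 2.65% lower past the fold. Atp6v1b1 stood at 85.5 CPM (79.2 to 92.2) and 137 CPM (129 to 145), a log2 ratio of 0.68 (0.54 to 0.82). Its free RNA part was 3.56 and 4.06 CPM, and its richest barcode held 1.79% of the UMIs of its library. Atp6v0a4 stood at 230.2 CPM (219.8 to 241) and 333 CPM (321 to 345), a log2 ratio of 0.53, and Rhcg at 63.4 and 93.2 CPM, a log2 ratio of 0.56, both just inside 1.5 times. The free RNA part of Atp6v0a4 was 6.54 and 8.24 CPM and that of Rhcg 4.79 and 4.599 CPM.

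The other members past the fold in distal convoluted tubule-like cells were scarce. Atp6v1g3 (19.7 and 35.1 CPM), Foxi1 (1.76 and 6.80 CPM) and Slc26a7 (2.39 and 3.79 CPM) were higher, and Atp6v0d2 (22.5 and 13.6 CPM) and Car15 (50.5 and 32.0 CPM) were lower. The ratio of Slc26a7 was 0.67 with an interval of -0.18 to 1.56, which includes 0. The free RNA part was 25.2 and 28.6 CPM for Atp6v1g3 and 3.73 and 3.65 CPM for Foxi1, above their level in the Cre- library and below it in the other. It was 6.21 and 6.52 CPM for Atp6v0d2 and 9.21 and 8.16 CPM for Car15, below their levels in both libraries. Without the richest barcode the ratios of Atp6v1g3 (0.498) and Car15 (-0.404) were inside 1.5 times.

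Thick ascending limb-like cells had 5 members past the fold, the highest of them at 45.9 CPM. Here 4.3% of all 12083 genes measured were higher and 2.34% lower past the fold. Of 23 V-ATPase genes 1 was higher (Atp6v1g3, 14.3 and 34.7 CPM) and 1 lower (Atp6v0d2, 45.9 and 30.2 CPM), with a median of 0.165 against 0.092 for all genes. Of 11 acid-base genes Rhcg (3.31 and 5.08 CPM) and Slc26a4 (1.41 and 3.51 CPM) were higher and Foxi1 (5.38 and 2.62 CPM) was lower. The levels of Atp6v1g3, Rhcg and Slc26a4 were below their free RNA part (28.2 and 42.4 CPM for Atp6v1g3) in both libraries, and the part of free RNA in their ratios was not tested. Foxi1 lay near its free RNA part of 4.18 and 5.40 CPM, and 1 barcode held 41.5% of its UMIs in the Cre- library, without which the ratio was -0.271. Atp6v0d2, the remaining member, was above its free RNA part of 6.94 and 9.64 CPM. The member with the highest level of the acid-base group here, Car15, stood at 635 CPM (621 to 649.7) and 654 CPM (640.5 to 668), a log2 ratio of 0.04.

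In proximal tubule-like cells the 7 members past the fold were all lower in the library labelled PHDTiEC, against 3.44% of all 11381 genes measured that were higher and 3.23% that were lower. They were Atp6v1g3 (32.5 and 5.20 CPM), Atp6v0d2 (6.95 and 2.60 CPM), Atp6v1b1 (4.09 and 1.63 CPM), Atp6v1c2 (4.47 and 0.891 CPM), Rhcg (3.24 and 1.19 CPM), Slc26a4 (5.14 and 1.71 CPM) and Slc4a9 (4.76 and 1.04 CPM). Each is an intercalated or collecting duct gene, and each lay below its free RNA part in the library labelled PHDTiEC (25.5 CPM for Atp6v1g3). In the Cre- library they lay near it, such as Atp6v1g3 against 26.03 CPM and Atp6v1b1 against 3.68 CPM. At up to 50000 UMIs the ratios of Atp6v1g3, Atp6v0d2 and Atp6v1b1 were 0.624, 0.047 and 0.406, so their lower level was not seen under that limit. No alternative reversed the ratios of Atp6v1c2, Rhcg and Slc4a9. The part of depth and of free RNA in these ratios was not tested. The 5 intercalated cell markers, of which Atp6v1g3 and Foxi1 are members, summed to 67.2 and 19.9 CPM in this class. The members that proximal tubules are known for differed less, with Slc4a4 at 1851 CPM (1825 to 1877) and 1671 CPM (1649.6 to 1693), a log2 ratio of -0.15, and Car4 at 85.0 and 81.6 CPM, a log2 ratio of -0.06. Car2 stood at 645 and 513 CPM, a log2 ratio of -0.33, and Car12 at 104 and 72.8 CPM, a log2 ratio of -0.52. The medians were -0.076 for 22 V-ATPase genes, -0.423 for 8 acid-base genes and 0.028 for all genes.

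Injured proximal tubule-like cells had 24 members measured, where 4.38% of all 10950 genes measured were higher and 2.45% lower past the fold. Atp6v1g3 (11.7 and 26.6 CPM) and Atp6v0d2 (5.11 and 15.7 CPM) were higher and Car4 (12.7 and 7.91 CPM) was lower. Atp6v1g3 lay below its free RNA part of 22.9 and 31.0 CPM, and 1 barcode held 63.0% of its UMIs in the library labelled PHDTiEC, without which the ratio was -0.222. The free RNA part was 5.65 and 7.05 CPM for Atp6v0d2, near its level in the Cre- library, and 1.07 and 1.12 CPM for Car4, and the 5 intercalated cell markers summed to 36.7 and 73.1 CPM in this class. Slc4a4, with a free RNA part of 13.4 and 17.9 CPM, stood at 565 CPM (548 to 582) and 405 CPM (389 to 421), a log2 ratio of -0.48, inside 1.5 times.

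In macrophage-like cells, the largest class with 2437 and 2659 cells, 0 of 31 members were past the fold, where 1.76% of all 11935 genes measured were higher and 2.62% lower. The V-ATPase median was 0.072 over 22 genes against 0.025 for all genes, and the acid-base median was -0.106 over 9 genes, all of them scarce. Atp6v0d2 stood at 118 CPM (114 to 123) and 151 CPM (146.5 to 156), a log2 ratio of 0.36 (0.29 to 0.43). Atp6v1e1 followed at 288 and 354 CPM, a log2 ratio of 0.30.

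Within macrophages the pump genes varied by cluster. Macrophage-like cells fell into 3 clusters, a cluster led by Ccl8 and Mrc1 (1613 and 1695 cells), a cluster led by Mmp12, Gpnmb and Arg1 (638 and 805 cells), and a cluster of cycling cells (186 and 159). The summed V-ATPase level was 3289 and 3370 CPM in the first, 5148 and 5357 CPM in the second and 3926 and 4092 CPM in the cycling cluster. Atp6v0d2 stood at 7.09 and 5.53 CPM in the Ccl8 and Mrc1 cluster and at 247 and 293 CPM in the Mmp12 and Gpnmb cluster, a gap of 34.9-fold and 53.0-fold. In the cycling cluster it stood at 74.9 and 124 CPM.

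Other V1 and V0 genes moved with Atp6v0d2 between those clusters by less. Atp6v1a was 2.46-fold and 2.42-fold, Atp6v1c1 2.21-fold and 2.20-fold, Atp6v1b2 2.05-fold and 2.06-fold, and Atp6v1e1 2.04-fold and 2.06-fold higher in the Mmp12 and Gpnmb cluster. In all, 8 of the 19 V-ATPase genes compared were at least 1.5 times higher there in both libraries and 0 were lower in both, where 10.9% of all genes measured were higher and 11.3% lower. Tcirg1, outside the members, had log2 ratios of 0.71 and 0.58 between the same clusters. Members took no part in the clustering, but clusters separate whole profiles, so these gaps are a description.

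In neutrophil-like cells 0 of 18 members were past the fold, where 4.70% of all genes measured were higher and 3.48% lower. These cells, with the highest summed level outside the intercalated-like cells, carried mostly the general isoforms. Atp6v0c stood there at 2020.4 and 2393 CPM, close to its level in type A-like cells, and Atp6v1b2 held 98.5% and 95.6% of the B subunit UMIs. Atp6v0a1 held 49.8% and 53.1% and Tcirg1 37.1% and 37.4% of the a subunit UMIs.

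Genes of the same pathways outside the members were read from lists of 11 pump assembly and regulation genes and 43 further acid-base transport genes. None of the assembly and regulation genes was past the fold in any of the 9 classes. Of the acid-base transport genes, Clcn5, the endosomal chloride-proton exchanger, stood at 1164 and 643 CPM in type A-like cells, a log2 ratio of -0.86, the only one of 9 measured there that was past the fold. No gene of either list was past it in type B-like cells. The proton-potassium pump gene Atp4a was lower in deep intercalated-like cells (34.2 and 20.4 CPM) and higher in distal convoluted tubule-like cells (59.0 and 101.0 CPM), where its relative Atp12a was at 8.30 and 17.3 CPM. Elsewhere, genes past the fold included Car13 in collecting duct-like (5.47 and 3.64 CPM), Car8 in thick ascending limb-like (10.5 and 6.58 CPM), Slc9a2 (2.95 and 1.71 CPM) in proximal tubule-like, Slc26a1 (15.6 and 9.36 CPM) in injured proximal tubule-like, and Slc4a8 (0.590 and 1.36 CPM) and Car7 (1.73 and 0.883 CPM) in macrophage-like cells.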

How the data were processed

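Kidney cells were profiled with a 10x Genomics 3′ kit, which gives 1 tag per captured molecule, so levels were not divided by gene length. The authors deposited raw UMI counts per gene and barcode for each library, made with Cell Ranger on mm10 per the submitters' notes. Barcodes with 500 to 100000 UMIs, at least 200 genes and at most 50% mt- UMIs were kept. Counts per 10000 were log-transformed and clustered in Seurat 5.3.0 (2000 variable genes less the members, 20 principal components, resolution 0.8), and intercalated-like clusters were clustered again. Clusters were named from marker lists, and a cluster rich in Gm26917 and Gm42418 (548 and 536 barcodes) was set aside. Scrublet (scanpy 1.11.5) was run for doublets, but its own threshold marked 0 barcodes, so none was removed and a score limit of 0.2 was tried as an alternative.

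UMI counts were summed per class and library and scaled to CPM. Intervals are exact Poisson for levels (scipy 1.17.1), at 95%. Those of ratios, taken from the split of UMIs between libraries, and those of shares are exact binomial (Clopper-Pearson). No test between genotypes was run, since each is 1 library. Every member is accounted for. Differences are named for members with at least 50 UMIs over both libraries and a ratio of at least 1.5, and levels for the most abundant members in intercalated-like cells. Free RNA was taken from barcodes under 100 UMIs, and its share of a class from markers of other cell types. Alternatives covered cell filters, depth limits, doublets, clustering, denominators, TMM factors from edgeR 4.0.16, cell weights, free RNA subtraction, count minimums and single barcodes. The members, lists and rules were chosen with earlier results of these data known, the subclusters and the score limit of 0.2 after seeing the files. A gene of the acid-base transport list is not reported here. The procedure was tested on simulated data. Python 3.11.15 and R 4.3.3 were used.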

Additional observations from a re-analysis of the deposited data

Results flagged for a closer look

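Several members had ratios past 1.5 times in opposite directions in different classes. The difference between classes was not tested, and with 1 library per genotype it could not be. All values are log2 ratios of the library labelled PHDTiEC over the Cre- library. Atp6v1g3 stood at 0.832 in distal convoluted tubule-like, 1.276 in thick ascending limb-like and 1.192 in injured proximal tubule-like cells, but at -2.643 in proximal tubule-like cells. Atp6v0d2 stood at 1.616 in injured proximal tubule-like cells, but at -0.726 in distal convoluted tubule-like, -0.605 in thick ascending limb-like and -1.419 in proximal tubule-like cells. Atp6v1b1 stood at 0.679 in distal convoluted tubule-like and -1.326 in proximal tubule-like cells.

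Among the acid-base genes, Slc4a1 stood at 2.156 in type B-like and -1.731 in type A-like cells. Slc26a7 stood at 0.667 in distal convoluted tubule-like and -1.370 in deep intercalated-like cells, Rhcg at 0.619 in thick ascending limb-like and -1.446 in proximal tubule-like cells, and Foxi1 at 1.951 in distal convoluted tubule-like and -1.040 in thick ascending limb-like cells. Slc26a4 stood at 0.946 in collecting duct-like and 1.320 in thick ascending limb-like cells, but at -1.590 in proximal tubule-like cells.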

How the results depend on the processing

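No paired analysis was possible because each genotype is 1 library with no replicate number. Depth limits rare classes: in type A-like cells 27 of 38 members reached 50 UMIs. Over 33 results on single members, 398 alternative values were computed. Of these, 325 differed from the reported value by less than its counting interval, 58 moved by more without changing sign, and 15 reversed. The ratio stayed past 1.5 times in 337 and not in 61. In type A-like cells Car15 (-2.126 to -1.096), Rhbg (-0.948 to -0.703) and Slc4a1 (-1.858 to -1.362) stayed past it in every alternative that gave a value, whereas Car2 did not (-0.530 at most at 20% mt- UMIs, -0.470 as a mean over cells, -0.448 with the second clustering at resolution 1.6 and -0.583 without the richest barcode). Keeping members among the clustering genes and resolution 1.2 merged types A and B, and a second clustering at 0.4 gave no types either, so these gave no values there.

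The log2 ratio of the summed V-ATPase level (-0.001 in type A-like, 0.163 in type B-like, -0.057 in deep intercalated-like and 0.068 in macrophage-like cells) moved as follows. In type A-like cells it was -0.126 without mitochondrial, ribosomal and haemoglobin genes, -0.128 with TMM factors (which shift all genes there by -0.127) and -0.304 when cells were gated on Slc4a1 and Slc26a4. In type B-like cells it was 0.093 at up to 50000 UMIs, 0.101 with TMM, 0.113 as a mean over cells, 0.076 with free RNA subtracted and -0.188 when gated. In deep intercalated-like cells it was -0.009 at up to 50000 UMIs, -0.039 with members kept, -0.025 at resolution 1.2, -0.108 without those genes, -0.068 with TMM, -0.041 as a mean over cells, and 0.117, -0.013, 0.237, -0.381 and -0.041 in subclusters 0, 1, 5, 6 and 8. In macrophage-like cells it was 0.040 without those genes.

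Counts of members past the fold were 0 higher and 4 lower in type A-like, 1 and 0 in type B-like, 0 and 3 in deep intercalated-like and 0 and 0 in macrophage-like cells. As a mean over cells, 2 were higher in type B-like and 2 lower in macrophage-like cells. With a minimum of 10 UMIs 1 was higher in type A-like and 3 lower in macrophage-like cells, and with 100 UMIs 0 were higher in type B-like cells. In deep subcluster 0 there were 0 lower, in 2 and 5 each 1 higher and 1 lower, in 6 there were 1 higher and 10 lower, and in 8 there were 2 higher. The share of all genes past the fold was not computed for these alternatives and subclusters. Their counts therefore say nothing particular to the members.

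Reversals lay mostly at low levels. Atp6v1g3 in injured proximal tubule-like cells was -0.197 at a complexity of at least 0.8, -1.382 at up to 50000 UMIs, -0.157 as a mean over cells and -0.222 without the richest barcode. Slc26a4 in collecting duct-like cells was -0.248 at up to 50000 UMIs and -0.275 with members kept. In proximal tubule-like cells at up to 50000 UMIs Atp6v1g3 was 0.624, Atp6v0d2 0.047 and Atp6v1b1 0.406, and Slc26a4 was 0.185 as a mean over cells. Car4 in injured proximal tubule-like cells was 0.118 with members kept. Within deep intercalated-like cells Car2 was 0.151 in subcluster 0, Car15 0.004 in subcluster 1, and Slc26a7 1.746 and 0.354 in subclusters 2 and 5. Without the richest barcode Car2 in collecting duct-like (-0.511), Atp6v1g3 (0.498) and Car15 (-0.404) in distal convoluted tubule-like, and Foxi1 (-0.271) and Slc26a4 (0.528) in thick ascending limb-like cells were inside 1.5 times. The cause of these shifts was not tested.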

Other observations

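Members also had values in cells outside the tubule. In endothelial-like cells, chosen here after their values were seen, Car4 stood at 20.4 and 0.53 CPM (58 and 2 UMIs), with 75.9% of its UMIs in 1 barcode, Car2 at 26.03 and 12.1 CPM and Atp6v0a4 at 18.7 and 7.39 CPM. The summed V-ATPase level of these cells was 2155 and 2096 CPM. Fibroblast-like cells stood at 2263 and 2218 CPM and monocyte-like cells at 3453 and 3536 CPM, both below the Mmp12 and Gpnmb macrophage cluster. In neutrophil-like cells the median log2 ratio was 0.244 over the V-ATPase genes against 0.018 over all genes measured.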
